A study of Mus musculus with 8 samples.

Results

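The genes described here are the Wnt ligands, their Frizzled receptors and Lrp5/6 coreceptors, the secreted Sfrp and Dkk inhibitors, the R-spondins with their receptor Lgr4, and the intracellular proteins Axin1, Axin2 and β-catenin (Ctnnb1). They were chosen by symbol: every Wnt, Fzd and Sfrp gene of the deposited isoform table together with 12 named genes, which gave 45 of 49585 genes and 112 of 122968 isoforms. Positions are those of GENCODE M21 on GRCm38. The table comes from RNA-seq of a mouse liver endothelial cell line (LEC), from primary hepatic endothelial cells that were immortalized with SV40 and labelled as sinusoidal and of the strain C57BL/6. The siL-DHX15-LEC carry a lentiviral shRNA against the RNA helicase DHX15 that is switched on with doxycycline, and the wild-type LEC are labelled untreated, with 4 libraries per condition. A control that received vector and doxycycline without losing DHX15 is not among the 8 libraries, so the effects of these agents and of silencing cannot be told apart. The sources do not say whether the 4 libraries of a condition came from separate cultures or clones, so p-values measure the spread between these libraries, which may be technical.

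Wnt proteins are secreted, lipid-modified ligands that bind a Frizzled receptor. With Lrp5 or Lrp6 as coreceptor, a Wnt inactivates the complex in which Axin and Apc mark β-catenin for destruction, and the β-catenin that accumulates switches on genes through Tcf/Lef factors, whereas other Wnt proteins act through Frizzled and Ror receptors on cell polarity and movement without it. Sfrp proteins bind the ligand, Dkk1 binds the coreceptor, and R-spondins bound to Lgr receptors protect Frizzled from removal. In the liver, Wnt2, Wnt9b and Rspo3 from the endothelium are known to maintain the identity of the hepatocytes around the central vein.

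Dhx15, the silenced gene, fell, with 8968 ± 856 normalized counts in siL-DHX15-LEC and 27303 ± 797 in wild-type LEC (SD, n = 4 each; log2 fold change -1.61). From the deposited normalized counts 77335734 to 149258495 reads were recovered per siL-DHX15-LEC library and 118830467 to 152045693 per wild-type LEC library. These are estimates that the quantification assigned to isoforms, not directly counted reads. Condition and flow cell lane cannot be told apart, since the siL-DHX15-LEC libraries ran on lanes 2 and 5 and the wild-type LEC libraries on lanes 1 and 4. Of 14 endothelial markers 7 had a mean of at least 10 normalized counts, namely Pecam1, Kdr, Flt1, Egfl7, Eng, Vwf and Esam. Cdh5, Tek, Tie1, Erg, Emcn, Cldn5 and Robo4 were at or near 0 in both conditions, as were Stab2, Lyve1, Clec4g and Fcgr2b of the sinusoidal markers. The paper, by other methods, reported CD31 (Pecam1) and eNOS protein and Lyve1 mRNA in LEC. Mesothelial markers, 10 of 12 of which passed the same filter, summed to 250324 to 275889 normalized counts in siL-DHX15-LEC and 218549 to 255326 in wild-type LEC, 3 of the 10 higher and 4 lower, with none at 0. Stellate cell and fibroblast markers summed to 47420 to 49025 in siL-DHX15-LEC and 55901 to 56568 in wild-type LEC, 1 of 9 tested higher and 4 lower. Of 21 hepatocyte markers tested, 19 were lower in siL-DHX15-LEC and 2 higher, which is 100% past the gene test used below. Their median log2 fold change was -5.03, from -8.74 to 0.27. The summed level of the 24 listed was 13430 to 14464 in siL-DHX15-LEC against 15250 to 15885 in wild-type LEC, a far smaller fall than that median. Of the 24, 10 had no counts in any of the 4 siL-DHX15-LEC libraries, namely Apoc3, Ttr, Serpina1a, Serpina1b, Fga, Fgb, Cyp3a11, Mup3, Mup7 and Mup20. The sums of the endothelial list (3550 to 3827 in siL-DHX15-LEC, 3649 to 3857 in wild-type LEC) and of the leukocyte list (1294 to 1457 in siL-DHX15-LEC, 1361 to 1551 in wild-type LEC) overlapped. By gene, 2 of 7 endothelial markers tested were higher and 2 lower, and 1 of 3 leukocyte markers tested was lower. With the gene test used below, 57.1% of the endothelial and 70% of the mesothelial markers tested passed, against 33.2% of all genes. The sinusoidal endothelial list summed to 10031 to 10862 in siL-DHX15-LEC and 9205 to 9782 in wild-type LEC, without overlap, but nearly all of it was Gata4, which rose (9587 to 10447 in siL-DHX15-LEC, 8723 to 9271 in wild-type LEC). Of the other 4 sinusoidal markers tested, Mrc1 fell (log2 fold change -1.41) and 3 did not pass. The hepatocyte and stellate cell marker levels, single endothelial, mesothelial and leukocyte markers, Gata4 and Mrc1 moved with the conditions beside every result below. Their part in the Wnt results was not tested, and in bulk RNA fewer cells of a type and less RNA per cell cannot be told apart.

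Isoforms were added up to 1 value per gene, and 30 of the 45 members passed a minimum mean of 10 normalized counts over the 8 libraries, 10 of 19 ligands, 9 of 10 Frizzled receptors, both coreceptors, 5 of 7 inhibitors, Lgr4 and the 3 intracellular proteins. The other 15 were Wnt1, Wnt2b, Wnt3, Wnt3a, Wnt7a, Wnt8a, Wnt8b, Wnt9b, Wnt16, Fzd10, Rspo1, Rspo2, Rspo3, Sfrp2 and Sfrp5, with Wnt2b the highest of them at a mean of 9.57. Wnt9b and Wnt3a were at 0 in all 8 libraries, which allows up to 3 reads, or 2.63 to 5.09 normalized counts per siL-DHX15-LEC library and 2.38 to 3.13 per wild-type LEC library, counting error only. Rspo3 was listed at 3.40, 7.95, 7.02 and 3.79 normalized counts in siL-DHX15-LEC and at 4.12, 0.79, 1.04 and 10.4 in wild-type LEC, under that limit in 1 siL-DHX15-LEC and 2 wild-type LEC libraries and above it in the others. Of these hepatocyte-maintaining factors, Wnt2 alone passed the filter. Wnt1 was listed at 0, 0, 0.88 and 1.89 normalized counts in siL-DHX15-LEC and at 6.18, 6.35, 6.27 and 1.73 in wild-type LEC, too low to be tested.

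To compare levels between genes, each isoform's normalized count was divided by its transcript length in kb. β-catenin was the most abundant member, with 13806 ± 108 normalized counts per kb in siL-DHX15-LEC and 13667 ± 451 in wild-type LEC (SD, n = 4 each), and Axin1, the scaffold of the destruction complex, followed with 3809 ± 197 in siL-DHX15-LEC and 3607 ± 119 in wild-type LEC. Lrp5 stood at 2963 ± 106 per kb in siL-DHX15-LEC and 2681 ± 61.1 in wild-type LEC, and Lrp6 at 2142 ± 180.2 in siL-DHX15-LEC and 2232 ± 166 in wild-type LEC. Both coreceptors and Fzd2, Fzd7 and Fzd6 were higher than any ligand. Axin2, a β-catenin target gene that feeds back on the pathway, stood near the bottom of the 30, with 5.38 ± 2.58 per kb in siL-DHX15-LEC and 5.13 ± 3.97 in wild-type LEC.

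**Figure D1:**
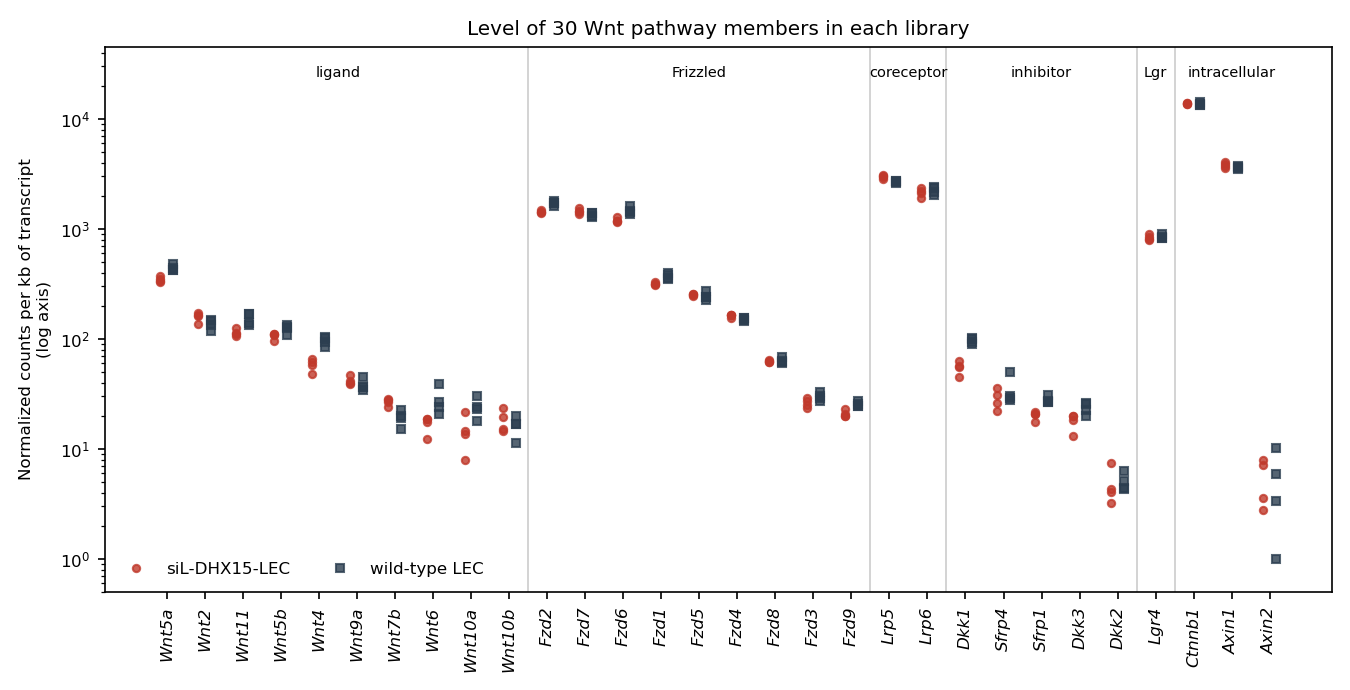
Normalized counts per kb of transcript (log axis) of the 30 members that passed the filter, by role, with a red circle per siL-DHX15-LEC library and a dark square per wild-type LEC library. Of the ligands Wnt5a is highest, near 394 (mean of all 8 libraries), whereas β-catenin (Ctnnb1) lies near 13737 and Lrp5 near 2822.

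Among the ligands, Wnt5a, which signals mostly through Ror and Frizzled without β-catenin, was first with 347 ± 20.5 normalized counts per kb in siL-DHX15-LEC and 441 ± 28.2 in wild-type LEC. Wnt2, Wnt11 and Wnt5b came next. Wnt2 was second in siL-DHX15-LEC, with 160 ± 16.1 per kb, above Wnt11 with 114 ± 8.32, which overlapped with Wnt5b, whereas in wild-type LEC Wnt11 stood at 152 ± 18.2 and Wnt2 at 137 ± 14.1, with overlapping libraries, so that their order there was not resolved. Neighbours further down overlapped in both conditions for Wnt6, Wnt10a and Wnt10b, and in wild-type LEC for Wnt7b and Wnt6. The summed level of the 19 ligands was 914 ± 23.3 per kb in siL-DHX15-LEC and 1086 ± 79.9 in wild-type LEC, with no overlap (888 to 945 in siL-DHX15-LEC, 999.5 to 1191 in wild-type LEC).

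As a share of that sum, Wnt2 made up 15.3% to 18.96% in siL-DHX15-LEC and 11.8% to 13.7% in wild-type LEC. Wnt5a took 36.1% to 39.8% in siL-DHX15-LEC and 39.6% to 42.3% in wild-type LEC, which overlap, and Wnt4 took 5.38% to 7.24% in siL-DHX15-LEC and 8.45% to 9.23% in wild-type LEC. Among the receptors, Fzd2, Fzd7 and Fzd6 together held most of the Frizzled signal. Fzd7 was level with Fzd2 in siL-DHX15-LEC, at 29.4% ± 1.40 for Fzd7 and 29.1% ± 0.762 for Fzd2 of the Frizzled sum (SD, n = 4), whereas in wild-type LEC Fzd7 stood at 24.9% ± 1.02, below Fzd2 at 31.6% ± 0.685, and overlapped with Fzd6 at 27.0% ± 1.05. Shares of a sum depend on each other, and these were described without a test.

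**Figure D2:**
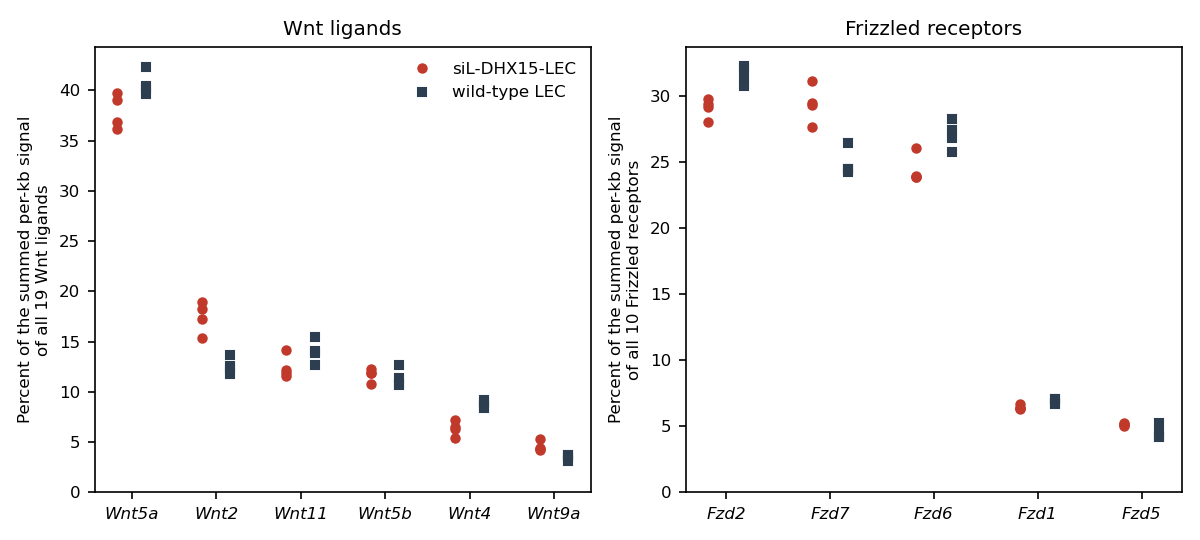
Share (percent) of the summed normalized counts per kb of all 19 ligands held by the 6 most abundant (left) and of all 10 Frizzled receptors held by the 5 most abundant (right), with a red circle per siL-DHX15-LEC library and a dark square per wild-type LEC library. The libraries of the conditions do not overlap for Wnt2 (15.3% to 18.96% in siL-DHX15-LEC, 11.8% to 13.7% in wild-type LEC) or Fzd7 (27.7% to 31.1% in siL-DHX15-LEC, 24.3% to 26.4% in wild-type LEC).

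The conditions were compared per gene with limma on log2(normalized count + 1) over all 16497 genes that passed the filter, with Benjamini-Hochberg adjustment over all of them at 0.05; fold changes are siL-DHX15-LEC over wild-type LEC on that scale, which understates those of low genes. Of the 30 members tested 12 passed (40%), against 33.2% of all genes, a share not far from the background. They split as 2 higher and 10 lower, where 18.4% of all genes were higher and 14.8% lower. The libraries of the conditions did not overlap for 2 members higher and 12 lower, against 17.6% and 13.2% of all genes. The median log2 fold change of the 30 was -0.16, and that of all genes -0.01. When the libraries were rescaled to equal totals, 1 member was higher and 13 were lower, and all genes split as 1861 higher and 3896 lower in place of 3039 and 2439.

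**Figure D3:**
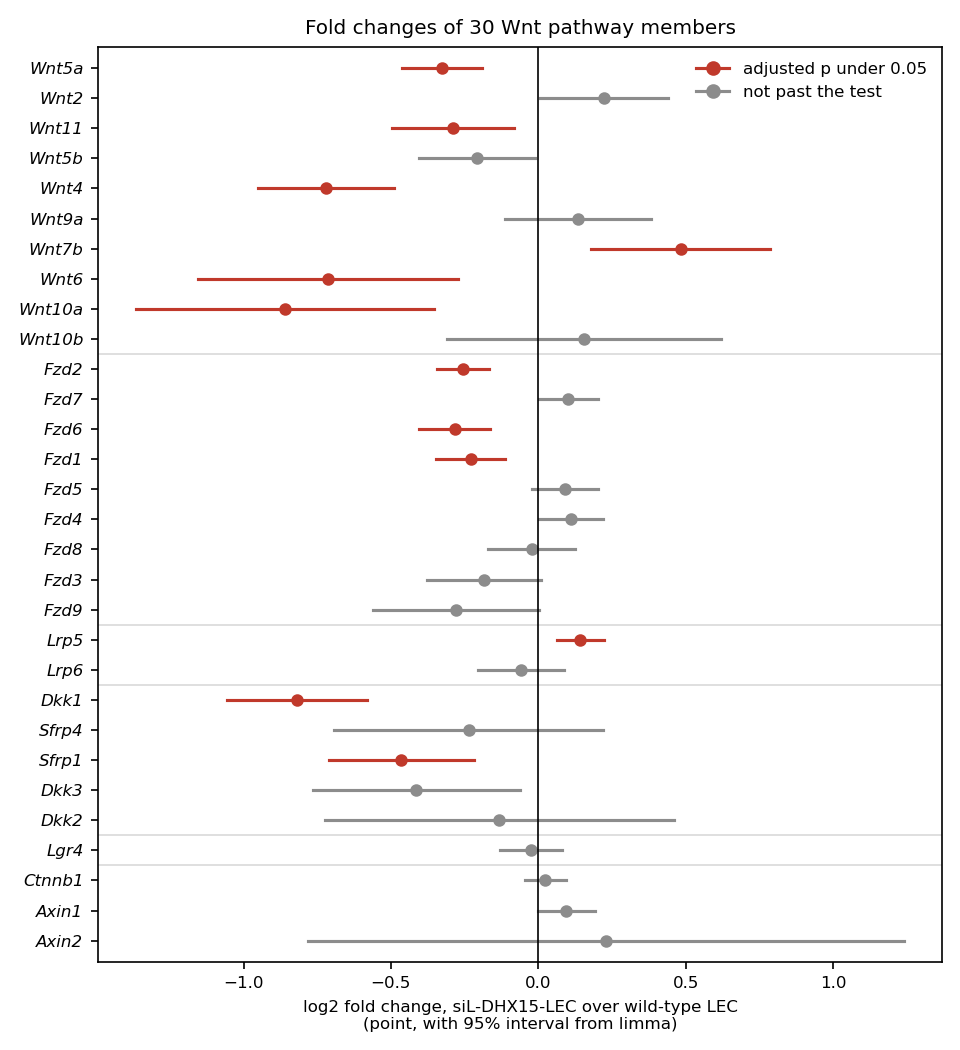
log2 fold change of siL-DHX15-LEC over wild-type LEC (point) with its 95% interval from limma (line) for the 30 members, by role and in order of level per kb. Red marks the 12 with an adjusted p under 0.05, Wnt7b and Lrp5 to the right of 0 and the other 10 to the left, from Wnt10a at -0.86 to Fzd1 at -0.23.

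Among the 10 ligands tested 5 fell, 1 rose and 4 did not pass, which is 60% called against 33.2% of all genes. Wnt4, a ligand of the developing kidney, gonads and other organs (ENSMUSG00000036856.4, chr4:137277489-137299726 of GRCm38), had 200.3, 276, 242 and 257 normalized counts in siL-DHX15-LEC, against 432, 354, 423 and 396 in wild-type LEC. Every siL-DHX15-LEC library was below the lowest wild-type LEC library. Wnt4 thus fell, by 0.72 on the log2 scale (SE 0.106, adjusted p = 0.000479), the smallest adjusted p of any ligand. Its only tested isoform was Wnt4-001.

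Wnt5a (ENSMUSG00000021994.14, chr14:28504750-28527448) had 1762, 1595, 1617 and 1873 normalized counts in siL-DHX15-LEC, against 2294, 2079.8, 2185 and 2022 in wild-type LEC. The groups did not overlap, and the gap between the highest siL-DHX15-LEC and the lowest wild-type LEC library was narrow. Its log2 fold change was -0.33 (SE 0.0618, adjusted p = 0.0022). Its isoforms Wnt5a-001 and Wnt5a-002 held 56.5% and 42.7% of the counts in siL-DHX15-LEC and 54.3% and 44.6% in wild-type LEC.

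Wnt6 and Wnt10a, both ligands that act through β-catenin, are neighbours on the forward strand of chromosome 1 with 6193 bases between them, Wnt6 at chr1:74771892-74785322 and Wnt10a at chr1:74791516-74804179, and both fell. Wnt6 had 25.5, 33.6, 38.6 and 28.4 normalized counts in siL-DHX15-LEC, against 72.1, 42.9, 50.1 and 45.9 in wild-type LEC. Wnt10a had 34.0, 19.4, 36.0 and 33.1 in siL-DHX15-LEC, against 74.2, 59.5, 43.9 and 46.7 in wild-type LEC. For both genes the wild-type LEC libraries were spread widely, with replicate 1 the highest, and none of them reached down to the siL-DHX15-LEC libraries. The log2 fold changes were -0.71 for Wnt6 (SE 0.201, adjusted p = 0.0184) and -0.86 for Wnt10a (SE 0.231, adjusted p = 0.0145), at low counts. Without siL-DHX15-LEC replicate 1, the adjusted p of Wnt6 was 0.0512.

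Of the other close pairs of Wnt genes, Wnt10b lies 11706 bases from Wnt1, Wnt9a 16175 bases from Wnt3a and Wnt3 24328 bases from Wnt9b, and in each of these pairs at most 1 gene passed the filter. Wnt10b, which acts in fat and bone, did not pass the test, with 39.6 ± 9.14 normalized counts in siL-DHX15-LEC and 35.5 ± 7.62 in wild-type LEC (log2 fold change 0.16, adjusted p = 0.601).

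Wnt11, a relative of Wnt5a in its signaling, had 188, 187, 165 and 185 normalized counts in siL-DHX15-LEC, against 238, 192, 227 and 234 in wild-type LEC. The groups were separated only narrowly, by wild-type LEC replicate 2. It fell (log2 fold change -0.29, SE 0.0951, adjusted p = 0.0349), a call that was lost when any of 6 of the 8 libraries was left out, with an adjusted p of 0.0529 without siL-DHX15-LEC replicate 1, 0.0544 without replicate 2, 0.104 without replicate 3, 0.0739 without wild-type LEC replicate 1, 0.0868 without replicate 3 and 0.0987 without replicate 4.

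Wnt7b, a ligand that acts on the endothelium of the brain, was the ligand that rose. It had 88.3, 93.6, 94.8 and 80.4 normalized counts in siL-DHX15-LEC, against 75.2, 65.9, 51.2 and 64.0 in wild-type LEC, higher by 0.48 on the log2 scale (SE 0.139, adjusted p = 0.020). All siL-DHX15-LEC libraries were above all wild-type LEC libraries. Part of the difference lay in a minor isoform: Wnt7b-202 had 16.98, 6.18, 21.1 and 17.03 in siL-DHX15-LEC, against 4.12, 6.35, 0 and 0 in wild-type LEC, while Wnt7b-201 had 71.3, 87.4, 73.7 and 63.4 in siL-DHX15-LEC, against 71.1, 59.5, 51.2 and 64.0 in wild-type LEC, which overlap. With Wnt7b-201 alone the log2 fold change was 0.26 (adjusted p = 0.237), and the adjusted p for the gene was 0.0508 without siL-DHX15-LEC replicate 2, 0.0584 without replicate 3 and 0.0602 without wild-type LEC replicate 3.

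Wnt2, the liver endothelial ligand, did not pass, with 307, 375, 391 and 367 normalized counts in siL-DHX15-LEC, against 337, 266, 303 and 328 in wild-type LEC. The groups overlapped through siL-DHX15-LEC replicate 1, the lowest of its group (log2 fold change 0.22, 95% interval 0.01 to 0.44, adjusted p = 0.106; 0.0414 without that library). Wnt9a, known from joint development, had 138 ± 12.5 normalized counts in siL-DHX15-LEC and 126 ± 15.2 in wild-type LEC (log2 fold change 0.13, adjusted p = 0.387). Wnt5b, the close relative of Wnt5a, had 243 ± 19.1 in siL-DHX15-LEC and 281 ± 22.7 in wild-type LEC (log2 fold change -0.21, adjusted p = 0.0956). Its sum was steadier than its isoforms: Wnt5b-201 was listed at 0, 0, 0 and 131 in siL-DHX15-LEC and at 204, 54.8, 73.1 and 37.2 in wild-type LEC. The 4 isoforms of Wnt5b are 2115 to 2371 bases long, and their usage, the share of the gene in each isoform, did not pass limma's diffSplice test (adjusted p = 0.352).

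**Figure D4:**
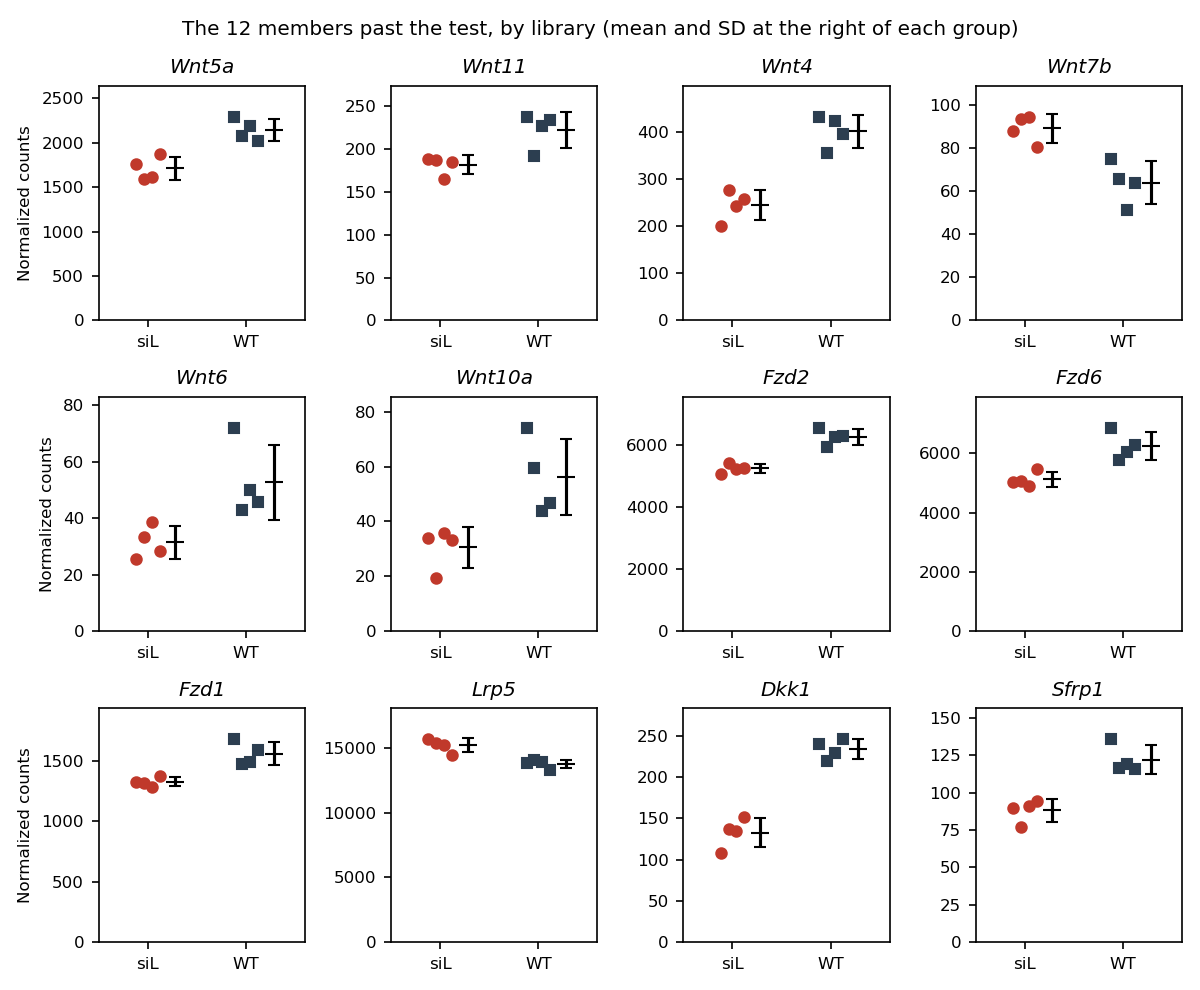
Normalized counts (linear axis from 0) of the 12 members past the test in each library, siL-DHX15-LEC (siL, red circles) left of wild-type LEC (WT, dark squares), with the mean and SD (n = 4) as a black bar at the right of each group. No member shows an overlap of the conditions; the gap is wide for Dkk1 (133 ± 17.8 in siL-DHX15-LEC, 234 ± 12.2 in wild-type LEC) and narrow for Wnt11 (182 ± 11.1 in siL-DHX15-LEC, 223 ± 20.9 in wild-type LEC).

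Of the 9 Frizzled receptors tested 3 fell and 6 did not pass, which is 33.3% called against 33.2% of all genes. Fzd2, the receptor with the highest level in wild-type LEC and one that can carry Wnt5a signals (ENSMUSG00000050288.6, chr11:102604396-102608058), had 5069.99, 5417, 5204 and 5252 normalized counts in siL-DHX15-LEC, against 6549, 5926, 6241 and 6287 in wild-type LEC. The libraries within a group lay close together and the groups were apart (log2 fold change -0.26, SE 0.0407, adjusted p = 0.000806). Fzd6, known for its role in the orientation of hair follicles, had 5045, 5059, 4912 and 5464 in siL-DHX15-LEC, against 6867, 5785, 6052 and 6266 in wild-type LEC. The groups did not overlap (log2 fold change -0.28, SE 0.0546, adjusted p = 0.00241).

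Fzd1, a receptor that acts with Lrp coreceptors, had 1324, 1320.5, 1288 and 1378 normalized counts in siL-DHX15-LEC, against 1683, 1469, 1493 and 1591 in wild-type LEC. Again every siL-DHX15-LEC library was lower (log2 fold change -0.23, SE 0.0541, adjusted p = 0.00729). Fzd9, known from bone, had 52.6, 45.9, 47.4 and 45.4 in siL-DHX15-LEC, against 61.8, 56.4, 58.5 and 56.3 in wild-type LEC. It was separated in the same direction but did not pass (log2 fold change -0.28, adjusted p = 0.115; 0.0118 when limma was run without the trend of the variance with abundance, and 0.0430 after rescaling to equal totals).

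The remaining receptors had log2 fold changes between -0.18 and 0.11. Fzd7, the closest relative of Fzd2 and Fzd1, had 6961, 6596, 6444 and 6161 normalized counts in siL-DHX15-LEC, against 6267, 6303, 5854 and 5941 in wild-type LEC, which overlap through siL-DHX15-LEC replicate 4 (log2 fold change 0.10, 95% interval 0.00 to 0.20, adjusted p = 0.104). Without that library its adjusted p was 0.0324. Fzd4, the receptor of Norrin in retinal vessels, had 1091 ± 28.9 in siL-DHX15-LEC and 1011 ± 35.3 in wild-type LEC (log2 fold change 0.11, adjusted p = 0.110). Fzd5, needed for the vessels of the yolk sac, had 1611 ± 12.7 in siL-DHX15-LEC and 1516 ± 95.02 in wild-type LEC (log2 fold change 0.09, adjusted p = 0.201). The libraries overlapped for both receptors. Fzd3, which guides axons, had 334 ± 30.2 in siL-DHX15-LEC and 379.6 ± 32.5 in wild-type LEC (log2 fold change -0.18, adjusted p = 0.129). Fzd8, the closest relative of Fzd5, had 373 ± 8.55 in siL-DHX15-LEC and 379.6 ± 22.4 in wild-type LEC (log2 fold change -0.02, adjusted p = 0.817).

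Lrp5, a coreceptor known for its part in bone mass and retinal vessels (ENSMUSG00000024913.16, chr19:3584828-3686564), had 15697, 15329, 15228 and 14431 normalized counts in siL-DHX15-LEC, against 13828, 14009.5, 13856 and 13261 in wild-type LEC. All siL-DHX15-LEC libraries were higher, by a small margin for replicate 4. It rose (log2 fold change 0.14, SE 0.0368, adjusted p = 0.0117), but with the libraries rescaled to equal totals, which moved the median of all genes by -0.07, the log2 fold change was 0.08 and the adjusted p 0.136. Lrp6, its paralog, had 17108, 14827, 17056 and 18489 in siL-DHX15-LEC and 16088, 18789.9, 18362 and 17005 in wild-type LEC. These overlapped fully (log2 fold change -0.06, 95% interval -0.21 to 0.09, adjusted p = 0.516).

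Of the 5 secreted inhibitors tested 2 fell and 3 did not pass, which is 40% called against 33.2% of all genes. Their median log2 fold change was -0.41. Dkk1, which binds Lrp5 and Lrp6 and is itself a target gene of β-catenin (ENSMUSG00000024868.8, chr19:30545863-30549665, reverse strand), had 109, 137, 134 and 151 normalized counts in siL-DHX15-LEC, against 240.1, 219, 229 and 247 in wild-type LEC. The highest siL-DHX15-LEC library was well below the lowest wild-type LEC library. Dkk1 fell by 0.82 on the log2 scale (SE 0.109, adjusted p = 0.000265), and its log2 fold change lay between -0.89 and -0.73 under 18 other settings. Sfrp1, which binds Wnt proteins, had 89.99, 76.8, 91.3 and 94.6 in siL-DHX15-LEC, against 136, 117, 119 and 116 in wild-type LEC. The groups did not overlap, with wild-type LEC replicate 1 the highest (log2 fold change -0.46, SE 0.112, adjusted p = 0.00827).

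Dkk3, a member of the Dkk family that does not bind Lrp6 as Dkk1 does, had 66.2, 44.2, 61.4 and 66.2 normalized counts in siL-DHX15-LEC, against 66.97, 87.3, 86.7 and 75.3 in wild-type LEC. The groups touched without overlapping, and the test was not passed (log2 fold change -0.41, adjusted p = 0.0678). Sfrp4, a relative of Sfrp1, had 50.6 ± 10.1 in siL-DHX15-LEC and 60.6 ± 18.2 in wild-type LEC (log2 fold change -0.24, adjusted p = 0.408). Dkk2, which binds Lrp6 as Dkk1 does, had 17.5 ± 6.82 in siL-DHX15-LEC and 18.6 ± 3.40 in wild-type LEC (log2 fold change -0.13, adjusted p = 0.734).

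The R-spondin receptor and the intracellular proteins did not pass. Lgr4 had 4151 ± 244 normalized counts in siL-DHX15-LEC and 4222 ± 144 in wild-type LEC (log2 fold change -0.03, 95% interval -0.13 to 0.08, adjusted p = 0.709). β-catenin (Ctnnb1) had 47286 ± 288 in siL-DHX15-LEC and 46534 ± 1205 in wild-type LEC, with a log2 fold change of 0.02 and a 95% interval of -0.05 to 0.09 (adjusted p = 0.601). Its SE of 0.0321 was the smallest of the 30 members. Axin1 had 12808 ± 612 in siL-DHX15-LEC and 11995 ± 508 in wild-type LEC (log2 fold change 0.09, adjusted p = 0.122).

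Axin2, a widely used readout of β-catenin signaling, had 6.79, 15.9, 7.91 and 14.2 normalized counts in siL-DHX15-LEC, against 18.5, 7.93, 3.13 and 12.1 in wild-type LEC. At these counts the groups overlapped fully, and its 95% interval of -0.78 to 1.24 on the log2 scale (log2 fold change 0.23, adjusted p = 0.732) is wide enough to hold a large change in either direction. It turned to -0.19 without wild-type LEC replicate 3.

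At the level of isoforms, 61 isoforms of members were tested and 0 passed limma at an adjusted p of 0.001, where 0.287% of all 50198 isoforms passed; 15 of the 61 had an unadjusted p under 0.05. With edgeR on the recovered reads 0 passed at 0.001, where 0.271% of all isoforms passed. With DESeq2, which called 9.16% of the 39457 isoforms it gave an adjusted p, 6 did, namely Dkk1-001, Fzd2-001, Fzd6-202, Lrp5-001, Wnt4-001 and Wnt5a-002. At an adjusted p of 0.05 in limma 8 of the 61 passed, against 10.4% of all isoforms. These were Lrp5-001, higher, and Dkk1-001, Fzd1-001, Fzd2-001, Fzd6-202, Sfrp1-001, Wnt4-001 and Wnt5a-002, lower, each from a gene that passed at the level of genes. Fzd6-202 had 4042 ± 286 normalized counts in siL-DHX15-LEC and 4917 ± 282 in wild-type LEC (log2 fold change -0.28, adjusted p = 0.0235), and Wnt5a-002 had 729.8 ± 33.4 in siL-DHX15-LEC and 958 ± 107 in wild-type LEC (log2 fold change -0.39, adjusted p = 0.0240).

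Since DHX15 is an RNA helicase with a role in the spliceosome, the share of a gene taken by each of its isoforms was compared. For 6 of the 45 members at least 2 isoforms each had a mean of at least 10 normalized counts and 5% of the gene. These 6 could be tested with diffSplice, and 0 passed an adjusted p of 0.05, against 16.5% of the 6676 genes tested. Wnt7b was not tested, because Wnt7b-202 had a mean of 8.97. That isoform made up 17.3% of Wnt7b in siL-DHX15-LEC and 3.78% in wild-type LEC. Axin1 and Fzd5 had an unadjusted p under 0.05, and with a variance per isoform 0 of the 6 passed. Axin1-001 made up 64.4%, 61.2%, 62.1% and 65.6% of Axin1 in siL-DHX15-LEC, against 61.2%, 59.0%, 58.1% and 58.2% in wild-type LEC, nearly separated (adjusted p = 0.0861). Fzd5-002 made up 4.59%, 7.53%, 6.26% and 4.50% of Fzd5 in siL-DHX15-LEC, against 7.55%, 10.8%, 8.88% and 7.20% in wild-type LEC, which overlap through siL-DHX15-LEC replicate 2 (adjusted p = 0.0911). Without that library Fzd5 passed, and 1 of the 6 members then had a changed usage. Fzd6, Wnt5a, Wnt11 and Wnt5b had adjusted p-values of 0.942, 0.591, 0.607 and 0.352. For 19 of the members a single isoform was tested.

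Because Dkk1 is a target gene of β-catenin, the 250 bases before the RefSeq start of the members were searched on both strands for TCAAAG, the core of the site that Tcf/Lef factors bind, and on the gene's strand for TATAAA, the core of the TATA box. The RefSeq table (GRCm38.p6) held 29 of the 45 members and 5 of the 12 that passed. Of all 32851 windows in the table, 13.8% hold TCAAAG and 1.37% hold it at least 2 times, and 7.59% hold TATAAA. Of the 29 members, which have 33 windows, 4 held TCAAAG in at least 1 window, a share near that of all windows. These were Dkk1, Fzd1 and Wnt11, which fell, and Wnt5b, which did not pass the test. TATAAA was held by 5, Dkk1, Fzd1, Wnt11, Dkk2 and Ctnnb1, of which Dkk2 and Ctnnb1 did not pass the test. The matches of the 4 members with TCAAAG are shown with up to 12 bases on each side, 5′ to 3′ on the gene's strand, with the match in capitals (CTTTGA is TCAAAG read on the other strand), and are descriptions of letters, not sites shown to be bound.
Dkk1, chr19:30549653-30549682, reverse strand: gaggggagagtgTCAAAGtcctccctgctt
Dkk1, chr19:30549596-30549625, reverse strand: ctcctcccaaagCTTTGAaatcccatcccg
Dkk1, chr19:30549533-30549562, reverse strand: tgggagcctgagTATAAAggcagccagagg
Fzd1, chr5:4758441-4758466, reverse strand: cgcagcacTCAAAGtagcagtctgtg
Fzd1, chr5:4758401-4758430, reverse strand: cgagggtaggatTATAAAatatgaagacag
Wnt11, chr7:98835050-98835079, forward strand: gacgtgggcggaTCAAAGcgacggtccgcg
Wnt11, chr7:98835071-98835100, forward strand: cggtccgcgcctTATAAAacgcttgggccg
Wnt5b, chr6:119449440-119449469, reverse strand: gagtaagtctctCTTTGAtctgctccctgt
The TCAAAG matches of Dkk1 begin 174 and 117 bases before its RefSeq start and its TATAAA 54 bases before it, whereas GENCODE M21 places the start of Dkk1 169 bases further upstream. In Wnt11 the window shown has the same start in both annotations, with TCAAAG beginning 50 and TATAAA 29 bases before it. In Fzd1 TCAAAG begins 242 and TATAAA 202 bases before the RefSeq start, which lies 181 bases upstream of the GENCODE start. In the Wnt5b window shown TCAAAG begins 71 bases before the RefSeq start, which lies 94961 bases downstream of the first GENCODE start of the gene. Of the 29 members, 15 had no RefSeq start at the GENCODE gene start. Where the RefSeq start lies downstream, the window before it can lie partly or wholly within the GENCODE gene. The window of Dkk1 lies partly within it, and its matches at 117 and 54 bases fall downstream of the GENCODE start. The window of Wnt4 also lies partly within the gene, as its RefSeq start is 146 bases downstream of the GENCODE start. The window of Wnt4 held neither motif, and its GC content of 85.2% was exceeded or matched by 0.143% of all windows, whose median was 52.4%. Among members the GC content ranged from 48.4% for Wnt8b to 87.6% for Wnt3a, both under the filter on counts. Wnt9a, which did not pass the test, had 84.4%.

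The other genes of the pathway were taken as 7 lists that do not contain the members. Of 127 genes listed, some of them in 2 lists, 113 were tested, and 19 were higher, 28 lower and 66 not past the test, which is 41.6% called against 33.2% of all genes, with a median log2 fold change of -0.01. Of 5 genes of Wnt secretion 2 rose and 3 did not pass, which is 40% called. Porcn, the acyltransferase that attaches the lipid to Wnt proteins, rose, with 1188 ± 76.7 normalized counts in siL-DHX15-LEC and 879 ± 30.4 in wild-type LEC (SD, n = 4 each; log2 fold change 0.43, adjusted p = 0.000291), and Snx3, which recycles the Wnt carrier, rose (log2 fold change 0.16, adjusted p = 0.00304). The carrier Wls itself had 16864 ± 716 in siL-DHX15-LEC and 16703 ± 461 in wild-type LEC (adjusted p = 0.818).

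Of 17 further secreted and membrane regulators tested 4 fell and 13 did not pass, which is 23.5% called against 33.2% of all genes. Cthrc1, a secreted protein that promotes Wnt binding to Frizzled and Ror2, fell, with 2667 ± 68.9 normalized counts in siL-DHX15-LEC and 3761 ± 295 in wild-type LEC (log2 fold change -0.49, adjusted p = 9.36e-05). Lgr6, an R-spondin receptor, fell, with 4734 ± 406 in siL-DHX15-LEC and 6544 ± 623 in wild-type LEC (log2 fold change -0.47, adjusted p = 0.000769). Tpbg, which inhibits Lrp6 signaling, fell (log2 fold change -0.26), as did Trabd2b, a protease that inactivates Wnt proteins (log2 fold change -0.26). Znrf3, the ligase that removes Frizzled, did not pass (log2 fold change -0.03, adjusted p = 0.683), nor did Notum, which removes the Wnt lipid (log2 fold change 0.20, adjusted p = 0.647). Rnf43 and Lgr5 were under the filter. Of the genes for Norrin and the Wnt7 coreceptors, Tspan12, the partner of Fzd4, fell (log2 fold change -0.38, adjusted p = 0.00246), Reck, which with Adgra2 presents Wnt7 proteins to Frizzled, rose (log2 fold change 0.21, adjusted p = 0.0276), and Adgra2 did not pass (log2 fold change 0.01).

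Inside the cell, the destruction complex and Dishevelled list had 5 higher and 6 lower of 27, which is 40.7% called against 33.2% of all genes. Apc2, a relative of Apc, fell, with 591 ± 26.9 normalized counts in siL-DHX15-LEC and 870.0 ± 50.4 in wild-type LEC (log2 fold change -0.56, adjusted p = 9.48e-05), and Dact1, a Dishevelled-binding protein, fell (log2 fold change -0.49). Nkd1, an inhibitor of Dishevelled that is induced by β-catenin, rose, with 321 ± 17.2 in siL-DHX15-LEC and 219.5 ± 28.7 in wild-type LEC (log2 fold change 0.55, adjusted p = 0.00179), and Frat2, which binds Gsk3, rose (log2 fold change 0.35). The nuclear partners of β-catenin had 4 higher and 3 lower of 21, which is 33.3% called and near the share of all genes. The β-catenin cofactor Bcl9l (log2 fold change -0.20) and the corepressor Tle2 (-0.38) fell, and the histone demethylase Kdm6b (0.30) and the Tcf factor Tcf7l1 (0.17) rose, while Lef1 (-0.20, adjusted p = 0.241) and Tcf7 (-0.06, adjusted p = 0.291) did not pass.

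In the list for planar polarity and Ror signaling 8 of 24 fell and 16 did not pass, which is 33.3% called against 33.2% of all genes, of which 14.8% were lower and 18.4% higher. Ror1, a receptor for Wnt5a, fell, with 256 ± 31.5 normalized counts in siL-DHX15-LEC and 407 ± 53.3 in wild-type LEC (log2 fold change -0.66, adjusted p = 0.00115). Ror2, the other Ror receptor, did not pass, with 284 ± 18.1 in siL-DHX15-LEC and 262 ± 24.6 in wild-type LEC (log2 fold change 0.12, adjusted p = 0.308). Prickle2, a planar polarity protein, fell, with 285 ± 25.4 in siL-DHX15-LEC and 389 ± 25.1 in wild-type LEC (log2 fold change -0.45, adjusted p = 0.00217). Ptk7, a Wnt coreceptor of this branch, fell (log2 fold change -0.24), and Mcc, first found as a gene mutated in colorectal cancer, fell (-0.19).

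Of 22 tested target genes of β-catenin 8 rose, 6 fell and 8 did not pass, which is 63.6% called against 33.2% of all genes. Myc, the growth regulator, rose, with 26703 ± 1339 normalized counts in siL-DHX15-LEC and 21112 ± 1002 in wild-type LEC (log2 fold change 0.34, adjusted p = 0.000294), as did the cell cycle gene Ccnd1 (log2 fold change 0.14, adjusted p = 0.025) and Nkd1. Id2, an inhibitor of differentiation factors, fell, with 4668 ± 663 in siL-DHX15-LEC and 7439 ± 811 in wild-type LEC (log2 fold change -0.68, adjusted p = 0.000445), as did the growth factor Bmp4 (log2 fold change -0.59) and the transcription factor Sox9 (-0.25). The targets thus did not move in a common direction, and their median log2 fold change was 0.03.

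**Figure D5:**
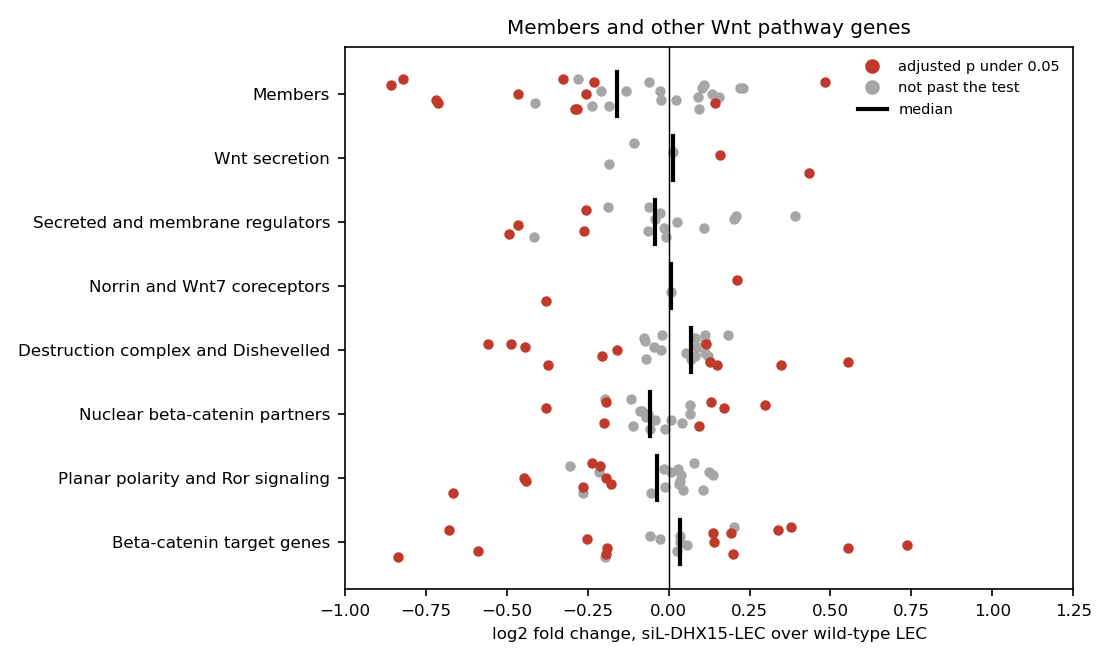
log2 fold change of siL-DHX15-LEC over wild-type LEC for each tested gene, for the 30 members (top) and the 7 lists of other pathway genes, with red points past an adjusted p of 0.05, grey points not past it and a black bar at the median. The median of the members is -0.16 and that of the β-catenin target genes 0.03.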

How the data were processed

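RNA was taken from 4 siL-DHX15-LEC and 4 wild-type LEC samples as poly-A, stranded libraries. According to the paper and the submitters' processing notes, the authors used STAR 2.5.2a to align to GRCm38, RSEM 1.2.28 to quantify GENCODE M12 isoforms, and size factors from DESeq2 1.18 to normalize. What they deposited is the normalized count of each isoform in each library, a signal and not a raw count. The percent values and the authors' read statistics were not used; the deposited run list gave the lanes. At least 99.9992% of values in a library were whole multiples of 1 step (0.794 to 1.70, within 0.1 step), which gave the whole numbers called recovered reads. They are RSEM estimates per isoform, and the uncertainty of assigning reads to isoforms was not measured.

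Isoforms were summed per gene, whose symbol is the isoform name without its number. Where the mean was 10 or more, log2(normalized count + 1) was fitted with limma 3.58.1 under R 4.3.3, with a variance trend and two-sided, with Benjamini-Hochberg adjustment at 0.05 (isoforms 0.001); usage was tested with diffSplice and a Simes test. All 8 libraries entered each fit. The recovered reads were also tested with edgeR 4.0.16 and with DESeq2 1.42.0, which called 5640 and 5519 genes; other pseudocounts (0.5 and 5), filters, scalings and gene values, and leaving out each library were further alternatives. Replicates differed beyond sampling noise (chi-square per gene of 7.99 to 116). Scripts were tested on simulated data. There the isoform fit at an adjusted p of 0.001 found 0% of 1.25-fold, 20.8% of 2-fold and 40.2% of 4-fold changes. A count of 0 isoforms past that threshold therefore does not show that none changed. The simulation changed 101 of 48909 isoforms 2-fold and similar numbers at each other fold, whereas 10.4% of isoforms passed 0.05 in the data. The rates found may thus differ from those in the data. In the usage test diffSplice found 61.9% of 2-fold changes, and 20.5% of its calls were false. In the simulated gene test 14.4% of the DESeq2 calls were false, against 5.49% for limma and 5.45% for edgeR. DESeq2 was not simulated for isoforms. Lengths and positions were taken from GENCODE M21 (GRCm38), which held all 112 member isoforms. Named genes were all members past the filter, isoforms past a threshold, and per list up to 4 genes with the smallest p plus 10 fixed ones; Adgra2, Ror2, Gata4 and Mrc1 were named after their values were seen. Members and lists were chosen with earlier results of these data known.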

Additional observations from a re-analysis of the deposited data

Results flagged for a closer look

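In each of the 60 groups of 4 libraries, 2 per tested member, the distance of the most extreme library from its nearest neighbour was compared with the range of the group, and 4 groups exceeded the critical value of Dixon's test for 4 values, where chance gives about 1 in 20. For Wnt11, siL-DHX15-LEC replicate 3 stood apart at 165 normalized counts, with the other 3 at 185 to 188. For Lgr4, wild-type LEC replicate 2 stood apart at 4438, with the other 3 at 4135 to 4174. For Sfrp1, wild-type LEC replicate 1 stood apart at 136, with the other 3 at 116 to 119. For Sfrp4, wild-type LEC replicate 3 stood apart at 87.7, with the other 3 at 49.3 to 53.6.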

How the results depend on the processing

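Of the 12 members called, 8 kept their direction and side of the threshold under 18 alternatives: Wnt4, Wnt5a, Wnt10a, Dkk1, Sfrp1, Fzd1, Fzd2 and Fzd6 (Wnt10a under 17, as it is below a minimum of 50). The number of members higher, 2, was 1 after rescaling to equal totals and 1 to 4 when each library was left out in turn; the number lower, 10, was 8 to 13. Wnt11 also lost its call with no filter on low values (adjusted p = 0.0707) and with its most abundant isoform in place of the sum (0.259). The log2 fold change of uncalled members turned for Ctnnb1 (-0.0438, equal totals) and Wnt5b (0.51, isoform with the highest mean), and, when each library was left out in turn, ranged on both sides of 0 for Axin2 (-0.19 to 0.418; negative without wild-type LEC replicate 3), Dkk2 (-0.36 to 0.0207; positive without siL-DHX15-LEC replicate 1), Lrp6 (-0.105 to 0.000915; positive without siL-DHX15-LEC replicate 2) and Fzd8 (-0.0468 to 0.0168; positive without wild-type LEC replicate 1). Of 18 uncalled members 7 passed under at least 1 alternative, each under 1 or 2. Their lowest adjusted p-values were 0.0237 for Axin1, 0.0444 for Dkk3, 0.0493 for Fzd5 and 0.0289 for Wnt5b. For Fzd7, Fzd9 and Wnt2 they were 0.0324, 0.0118 and 0.0414. Changed isoforms of members numbered 0, 6 with DESeq2 and 8 at an adjusted p of 0.05, and members with changed usage 0, and 0 to 1 when a library was left out. The 47 other pathway genes called were 33 to 51. The causes were not tested. No paired analysis was possible because the labels give no replicate numbers that pair libraries. Axin2 and Dkk2, the tested members with the lowest counts, had the widest intervals; the part of depth in this was not tested.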
